A study of Mus musculus with 19 samples.

Results

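Transcripts of 10 Sox genes were compared between mouse retinal ganglion cells (RGCs) that project to the same side of the brain (iRGCs) and those that cross the midline (cRGCs). The genes are Sox1, Sox2 and Sox3 (group SoxB1), Sox4, Sox11 and Sox12 (SoxC), Sox5 and Sox6 (SoxD), and Sox8 and Sox9 (SoxE). They were chosen by symbol, as the rows whose Ensembl identifier carries one of these names in the annotation of GRCm38, and make up 10 of the 47069 genes in the count tables. The annotation names another 9 Sox genes that have a group letter other than A, and these are given only for comparison.

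Sox proteins are transcription factors that bind and bend DNA through an HMG box, and genes of one group have similar boxes and often stand in for one another. In the developing nervous system, SoxB1 proteins hold progenitors in an undifferentiated state, SoxC proteins are made as cells leave the cycle and become neurons, and SoxE proteins are linked to glia, including the Müller glia of the retina. SoxD proteins lack a transactivation domain and act together with other factors, among them SoxE proteins on cartilage genes. SoxC genes are needed for RGCs to form, and have been linked to midline crossing of their axons.

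All 6 libraries came from retinas of E16.5 embryos, from which cells with GFP were sorted, 3 libraries per population, with strain C57/DBA F1, genotype WT and pooled sexes on their labels. The label WT leaves out the alleles that mark the cells. Both populations carried a Cre-dependent Sun1-GFP reporter of the nuclear envelope in the Rosa26 locus, driven by CAG once Cre has removed a stop cassette. For iRGCs, Cre came from the Slc6a4-Cre (Sert, line ET33) transgene, and for cRGCs from Pou4f2-Cre, placed in the Brn3b locus, with the ventrotemporal (VT) region cut away. Cre driver, retinal region and side of projection therefore cannot be told apart, and the reporter also stays on in the descendants of any cell that once had Cre. Library depth ran from 28193178 to 33638083 reads assigned to genes. The labels do not say that the libraries came from separate litters, so p-values measure only the spread between these samples, which may be technical.

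The libraries were checked against their labels first. Slc6a4, the serotonin transporter whose promoter drives Cre in iRGCs, had 2.06, 33.4 and 116 CPM in iRGC replicates 1, 2 and 3, and 48.1, 35.4 and 30.5 CPM in the cRGC replicates. CPM here are read counts scaled to a common library size after TMM normalization. Only iRGC replicate 3 lay above the cRGC libraries, iRGC replicate 1 lay far below them, and by edgeR with Benjamini-Hochberg adjustment the difference did not pass the test (log2 fold change 0.41, adjusted p = 0.768). Zic2, the iRGC determinant, was higher in iRGCs (log2 fold change 1.34, adjusted p = 2.09e-04, edgeR). Isl2 and Pou4f1, which mark cRGCs, were lower there (-2.15, adjusted p = 0.00117, and -2.28, adjusted p = 4.00e-04, edgeR). Names of populations below follow the labels, and the value without iRGC replicate 1 is given where it ends the call of a Sox gene. A second library stood apart. iRGC replicate 2 had the highest level of endothelial markers, with a geometric mean of 38.93 CPM over 10 genes, against 8.10 and 1.74 CPM in iRGC replicates 1 and 3 and at most 0.976 CPM in cRGCs.

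The upstream sequences of 4 genes are shown because they belong to the 4 genes with the highest levels per kilobase in both populations. RefSeq (GRCm38.p6) gave windows of 250 bases before to 50 bases after a start for 8 of the 10 genes, 13 windows in all, and none for Sox3 and Sox9. The bases before the start that lie outside annotated exons are printed 5′ to 3′ on the strand of the gene. Capitals mark 3 kinds of letters on either strand, namely a SOX core, the octamer ATGCAAAT that POU factors bind, and CCAAT, which reads as ATTGG on the other strand. The cores searched were ACAAAG and, as less common forms, AACAAT besides ACAATG and also ACAATA. The octamer and CCAAT were chosen after the windows had been read.
Sox2, chr3:34649745-34649994, plus strand: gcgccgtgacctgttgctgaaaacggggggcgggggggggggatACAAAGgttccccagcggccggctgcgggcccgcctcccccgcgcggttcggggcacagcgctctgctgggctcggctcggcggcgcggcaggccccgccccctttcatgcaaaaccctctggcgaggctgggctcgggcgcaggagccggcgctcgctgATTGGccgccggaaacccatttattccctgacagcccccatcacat
Sox4, chr13:28953714-28953949, minus strand: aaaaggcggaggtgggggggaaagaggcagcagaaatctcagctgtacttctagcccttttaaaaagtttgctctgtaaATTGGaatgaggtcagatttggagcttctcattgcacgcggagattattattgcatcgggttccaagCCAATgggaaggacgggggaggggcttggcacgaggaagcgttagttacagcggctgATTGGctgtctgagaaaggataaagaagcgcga
Sox11, chr12:27342719-27342968, minus strand: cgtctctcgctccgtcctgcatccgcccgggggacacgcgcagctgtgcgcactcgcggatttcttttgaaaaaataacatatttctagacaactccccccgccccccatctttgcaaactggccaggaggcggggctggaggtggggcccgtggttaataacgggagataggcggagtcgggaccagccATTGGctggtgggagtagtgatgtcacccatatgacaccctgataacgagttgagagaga
Sox12, chr2:152398064-152398296, minus strand: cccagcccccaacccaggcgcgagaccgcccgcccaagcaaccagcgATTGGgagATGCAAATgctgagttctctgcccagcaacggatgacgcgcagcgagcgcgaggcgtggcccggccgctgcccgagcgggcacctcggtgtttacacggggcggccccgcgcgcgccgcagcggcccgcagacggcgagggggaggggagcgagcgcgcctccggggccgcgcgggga

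The Sox2 stretch lies in the body of the noncoding gene Sox2ot, outside its exons, and the other stretches lie in no annotated gene. The Sox2 stretch holds an ACAAAG core and a CCAAT on the opposite strand. None of the SoxC windows holds a SOX core, which says only that these letters are not there. Over the 13 windows, a core was found in 8, which belong to Sox2, Sox5 and all 6 windows of Sox6. The RefSeq start for Sox5, at 143947106, lies far inside the gene, whose outermost annotated start is at 144781977. Those for Sox6 run from 115801609 to 116038744, inside an outermost start at 116038796. The 8 windows are thus mostly internal starts of long genes. Of all 32851 mouse windows, 36.6% hold at least one core, and 18.7% hold ACAAAG. The share was 10.7% for AACAAT, it was 12.6% for ACAATG, and it was 9.13% for ACAATA. The last 3 forms can overlap one another. CCAAT occurs in 8 windows of 6 genes, against 37.4% of all windows, and the Sox4 window holds 4 of them, 3 in the printed stretch. Among the 8 genes, the octamer occurs in the windows of Sox12 and Sox1, against 1.74% of all windows. GC content differs widely, from 36.7% in a Sox6 window to 76.7% in that of Sox12, around a median of 52.7% over all windows. These matches are letters in a window, not sites shown to be bound.

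All 10 genes passed the filter on low counts, as did 15941 genes in total. Sox1 reached the level of that filter in only 2 cRGC libraries, so its passing also rested on iRGC libraries. It was not tested where at least 10 counts in every library were required. The 5 SoxB1 and SoxE genes were higher in iRGCs, and the 5 SoxC and SoxD genes were lower there (adjusted p-value under 0.1). Among all tested genes, 46.4% passed this threshold, 23.3% as higher and 23.1% as lower in iRGCs. The 5 genes in each direction are to be read against that background. For 9 of the 10 genes, the libraries of the populations did not overlap, which held for 55.3% of tested genes. The median log2 fold change of iRGCs over cRGCs was 0.63 over the 10 genes, against -0.003 over all tested genes. By group it was 2.44 for SoxB1, -0.64 for SoxC, -1.15 for SoxD and 2.06 for SoxE. Without iRGC replicate 1, 4 genes were called higher and 4 lower. Without iRGC replicate 2, 4 were called higher and 3 lower. In bulk RNA, fewer cells of a type and less RNA per cell cannot be told apart.

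**Figure D1:**
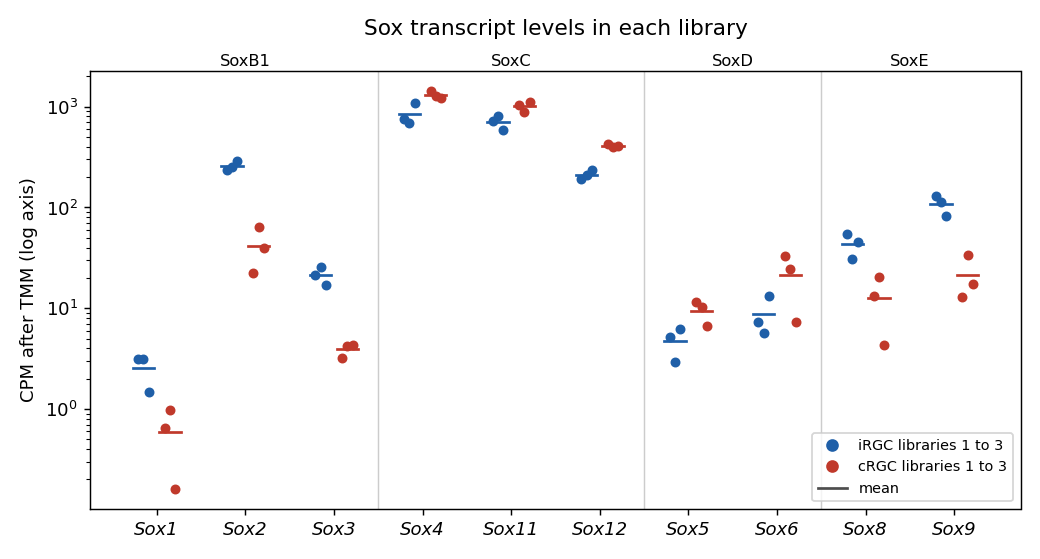
Level of each Sox gene in the 6 libraries, in CPM after TMM on a log axis. Points are libraries 1 to 3 from left to right, iRGC in blue and cRGC in red, and lines are means. The populations overlap for Sox6 alone.

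Sox2, the SoxB1 gene that maintains retinal progenitors, lies at chr3:34650405-34652461 (GRCm38) in a single exon. It had 237, 250 and 287 CPM in iRGC replicates 1, 2 and 3, and 22.6, 63.4 and 39.5 CPM in cRGC replicates 1, 2 and 3. All iRGC libraries lay well above all cRGC libraries, and the spread was wider in cRGCs (CV 49.0%) than in iRGCs (9.99%). iRGCs had a mean of 258 ± 25.8 CPM against 41.8 ± 20.5 CPM (SD, n = 3 each), a ratio of 6.17. On the log2 scale the change was 2.62 with an SE of 0.318 (adjusted p = 3.81e-04, edgeR). Sox2ot, on the same strand around Sox2, shares no exonic bases with it. It was higher in iRGCs too, by a smaller amount, with 28.8, 13.5 and 17.6 CPM against 5.46, 10.3 and 10.4 CPM (log2 fold change 1.20 ± 0.350 SE, edgeR adjusted p = 0.0239).

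Sox3, which acts in the neural tube and hypothalamus much as Sox2 does, is a gene of a single exon at chrX:60891366-60893430. Its levels were 21.3, 25.5 and 17.1 CPM in the iRGC libraries and 3.23, 4.21 and 4.32 CPM in the cRGC libraries. Every iRGC library lay above every cRGC library. Its log2 fold change was 2.44 (± 0.253 SE, edgeR adjusted p = 2.42e-04), close in size to that of Sox2. Sox1, the SoxB1 gene of the lens and neural plate, at chr8:12395295-12400126, had few reads, with 97, 101 and 47 counts in iRGCs and 17, 28 and 5 counts in cRGCs. Its change of 2.11 on the log2 scale had an SE of 0.853 (adjusted p = 0.0815, edgeR), and the call was lost without iRGC replicate 1 (adjusted p = 0.128), iRGC replicate 2 (0.197), cRGC replicate 1 (0.155) or cRGC replicate 3 (0.184).

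The SoxC genes were lower in iRGCs, each by less than 1 on the log2 scale. Sox4, at chr13:28948919-28953713, had 747, 689 and 1089 CPM in iRGCs and 1429, 1282 and 1213 CPM in cRGCs. The libraries did not overlap, though iRGC replicate 3 came near the lowest cRGC library. iRGCs had a mean of 842 ± 216 CPM against 1308 ± 111 CPM (SD, n = 3 each), a log2 fold change of -0.64 (± 0.172 SE, edgeR adjusted p = 0.0171). The long noncoding Gm26735 covers 54.6% of the exonic bases of Sox4 on the opposite strand, and the strand setting of the counting is not given in the sources used here. Gm26735 itself had means of only 3.00 CPM in iRGCs and 2.39 CPM in cRGCs, and adding its counts left the Sox4 log2 fold change at -0.63.

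Sox11, a partner of Sox4 in RGC formation, lies at chr12:27334264-27342574 in a single exon. It had 727, 801 and 586 CPM in iRGCs and 1052, 881 and 1107 CPM in cRGCs. The libraries did not overlap, but iRGC replicate 2 and cRGC replicate 2 were near each other. Its log2 fold change of -0.52 was the smallest in size among the 10 genes (± 0.142 SE, edgeR adjusted p = 0.0173).

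Sox12, the third SoxC gene, at chr2:152393611-152398063, had 190, 208 and 233 CPM in iRGCs and 423, 400 and 404 CPM in cRGCs. The libraries of each population lay close together, with a CV of 3.04% in cRGCs, the lowest of the 10 genes there, and 10.2% in iRGCs. cRGCs had 1.94 times the mean of iRGCs (log2 fold change -0.96 ± 0.107 SE, edgeR adjusted p = 2.85e-04). Scaling by library totals alone moved the median log2 fold change of all genes to 0.20. In that fit, Sox4 had -0.44, Sox12 -0.76 and Sox11 -0.31, and Sox11 no longer passed the test (adjusted p = 0.117).

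The SoxD genes were scarce and their libraries varied. Sox5 and Sox6 are long genes, at chr6:143828425-144781977 and chr7:115470872-116038796, each with 25 separate exonic blocks, and encode factors best known from cartilage and from cortical neurons. Sox5 had 5.21, 2.94 and 6.18 CPM in iRGCs and 11.4, 10.3 and 6.71 CPM in cRGCs. The populations were separated only by the gap between iRGC replicate 3 and cRGC replicate 3. Sox5 thus differed by -0.99 on the log2 scale (± 0.372 SE, edgeR adjusted p = 0.0644). Sox6 had 7.30, 5.63 and 13.1 CPM in iRGCs and 32.8, 24.7 and 7.23 CPM in cRGCs. Here the populations overlapped, as cRGC replicate 3 lay below iRGC replicates 1 and 3. For Sox6 the log2 fold change was -1.31 (± 0.520 SE, edgeR adjusted p = 0.0760).

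Both SoxD calls were lost when certain single libraries were left out. The adjusted p for Sox5 was 0.151 without iRGC replicate 2, 0.195 without cRGC replicate 1 and 0.176 without cRGC replicate 2 (edgeR). For Sox6 it was 0.177 without iRGC replicate 1, 0.208 without iRGC replicate 2, 0.266 without cRGC replicate 1 and 0.165 without cRGC replicate 2 (edgeR). Both calls were also lost with library totals alone (adjusted p = 0.120 for Sox5 and 0.109 for Sox6, edgeR). A replicate block ended both as well (adjusted p = 0.112 and 0.201, edgeR), and limma voom that of Sox6 (adjusted p = 0.156). Sox5os1, an antisense gene that shares 9.25% of the exonic bases of Sox5, had 0 counts in every library.

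The SoxE genes were higher in iRGCs. Sox9, needed for Müller glia and also made by retinal progenitors, lies at chr11:112782224-112787760. It had 129, 114 and 81.5 CPM in iRGCs and 13.1, 34.1 and 17.5 CPM in cRGCs. All iRGC libraries lay above all cRGC libraries, with a log2 fold change of 2.33 (± 0.339 SE, edgeR adjusted p = 8.19e-04). Sox8, which acts beside Sox9 in Müller glia, lies at chr17:25565892-25570686. It had 55.0, 30.9 and 45.1 CPM in iRGCs and 13.2, 20.4 and 4.36 CPM in cRGCs. The populations did not overlap, and the gap was narrowest between iRGC replicate 2 and cRGC replicate 2. Sox8 had a log2 fold change of 1.79 (± 0.472 SE, edgeR adjusted p = 0.0152). The antisense gene 2810468N07Rik shares 10.6% of the exonic bases of Sox8 and was also higher in iRGCs (log2 fold change 2.25, adjusted p = 0.0123, edgeR). Adding its counts gave Sox8 a log2 fold change of 1.83.

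**Figure D2:**
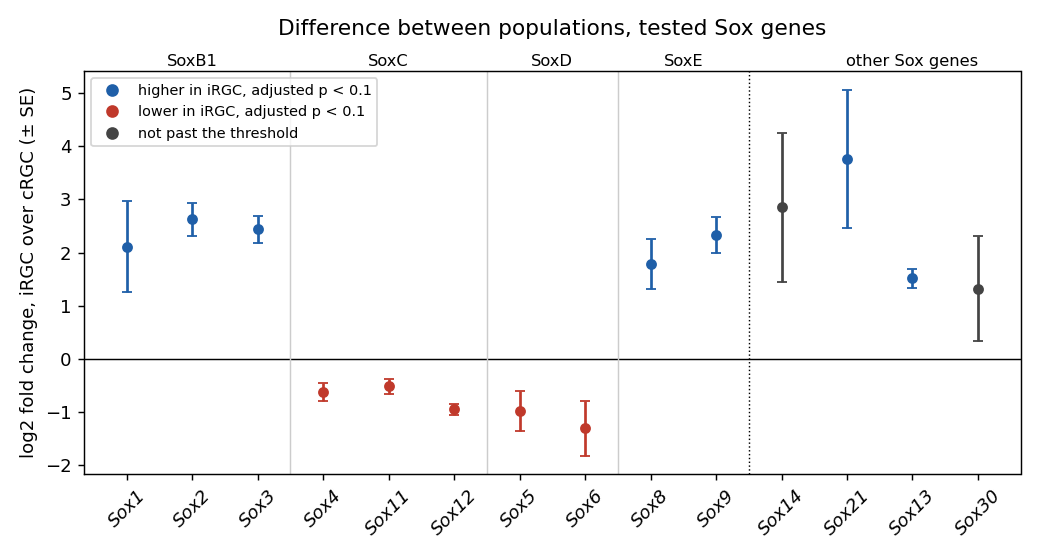
Log2 fold change of iRGCs over cRGCs with its SE for the 10 Sox genes and, right of the dotted line, other tested Sox genes with more than 3 counts over the cRGC libraries. Blue points passed the test as higher in iRGCs, red as lower, and grey did not pass. Among the 10 genes, SoxB1 and SoxE lie between 1.79 and 2.62, and SoxC and SoxD between -1.31 and -0.52, while Sox13, a SoxD gene outside the 10, lies at 1.51.

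Of the 9 other Sox genes, 5 were tested. Of these, Sox7 and Sox14 reached the level of the low-count filter in iRGC libraries alone, so they could have been called in no other direction. Sox21 reached that level in 3 iRGC libraries but in only 1 cRGC library. It too passed the filter through iRGCs, so its call is a description only. Sox13, a SoxD gene outside the 10, had 39.2, 43.6 and 51.1 CPM in iRGCs and 15.5, 13.0 and 18.4 CPM in cRGCs (log2 fold change 1.51 ± 0.183 SE, edgeR adjusted p = 3.81e-04). Its direction was opposite to that of Sox5 and Sox6, and with 10.3 CPM per kilobase in iRGCs its level lay above theirs. Sox21, a SoxB2 gene that counters SoxB1 proteins, had 143, 107 and 21 counts in iRGCs and 0, 14 and 4 counts in cRGCs (log2 fold change 3.77 ± 1.30 SE, edgeR adjusted p = 0.0464). Its call was lost without iRGC replicate 1 (adjusted p = 0.109, edgeR), iRGC replicate 2 (0.112) or cRGC replicate 3 (0.140). It was also lost with a replicate block (adjusted p = 0.105, edgeR) and by limma voom (0.124), while Sox13 kept its call in each of these. The log2 fold change of Sox21 ranged from 3.21 to 5.36 with single libraries left out. Sox14, the other SoxB2 gene, did not pass (log2 fold change 2.85, adjusted p = 0.143, edgeR), nor did Sox30 of group H (1.32, adjusted p = 0.334, edgeR).

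The SoxF genes act in endothelium. Sox7 had 32, 205 and 21 counts in iRGCs and 0, 0 and 1 in cRGCs. Its call (adjusted p = 0.00493, edgeR) is a description only, given how it passed the filter. Sox17 had 38, 154 and 0 counts in iRGCs, Sox18 had 0, 219 and 1, and both had 0 in every cRGC library and were not tested. All 3 were highest in iRGC replicate 2, the library with the most endothelial markers. Of the 10 endothelial genes, 6 were tested, and 3 of these reached the level of the filter in all cRGC libraries, so no count of calls is given. The summed level of the 10 was 448, 648 and 436 CPM in iRGCs and 88.7, 109 and 71.8 CPM in cRGCs, and Kdr was the most abundant, with 320 CPM in iRGC replicate 2 and 366 and 418 CPM in iRGC replicates 1 and 3. The part of endothelial RNA in the SoxF values was not tested. Sox10 of neural crest glia and Sox15 had 0 counts in every library.

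Levels of different genes were compared as CPM per kilobase of exon. In iRGCs the order was Sox4 with 176, Sox2 with 125, Sox11 with 84.8, Sox12 with 47.3 and Sox9 with 26.2 CPM per kilobase. Each of these lay above the next in all 3 libraries. Sox8 (14.0) and Sox3 (10.3) followed and overlapped each other, and Sox6 (0.585), Sox1 (0.533) and Sox5 (0.332) were last, each overlapping its neighbour. In cRGCs the order was Sox4 with 273, Sox11 with 122, Sox12 with 91.8 and Sox2 with 20.3 CPM per kilobase, again without overlap between neighbours. Below these came Sox9 (5.22), Sox8 (4.06), Sox3 (1.90), Sox6 (1.46) and Sox5 (0.659), each overlapping the next, and Sox1 (0.123), which lay apart from Sox5. Sox2 thus ranked above Sox11 and Sox12 in iRGCs and below both in cRGCs. By coding length, however, Sox11 (595) ranked above Sox2 (270) in iRGCs too, and only Sox12 (224) changed place with Sox2, which had 43.7 against 434 CPM per coding kilobase in cRGCs. Sox4 had more transcript per kilobase than 99.5% of tested genes in iRGCs and 99.6% in cRGCs. For Sox2 these figures were 99.1% and 83.2%.

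The sum over the 10 genes overlapped between populations. It was 462, 460 and 533 CPM per kilobase in iRGCs and 543, 513 and 505 in cRGCs, with means of 485 ± 42.0 and 520 ± 19.98 (SD, n = 3 each, p = 0.3, two-sided exact permutation test). An exact test of 3 libraries against 3 cannot give a p-value below 0.1, so none of these tests can pass 0.05. The makeup of the sum was then compared. SoxB1 genes took 27.3, 29.3 and 27.8% of it in iRGCs and 2.34, 6.44 and 4.23% in cRGCs. SoxC genes took 61.9, 62.4 and 65.6% in iRGCs and 95.7, 90.2 and 94.5% in cRGCs. The SoxE share was 10.6, 8.13 and 6.41% against 1.36, 2.88 and 1.11%. For these 3 groups the libraries did not overlap (p = 0.1, the smallest possible, adjusted p = 0.133 over 4 groups, two-sided exact permutation tests). SoxD genes took at most 0.554% in any library, and their shares overlapped (p = 0.2, exact permutation test). The sizes depend on the length used. With coding length in place of exon length, the SoxB1 difference fell from 23.8 to 13.5 percentage points and the SoxC difference went from -30.2 to -17.8.

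**Figure D3:**
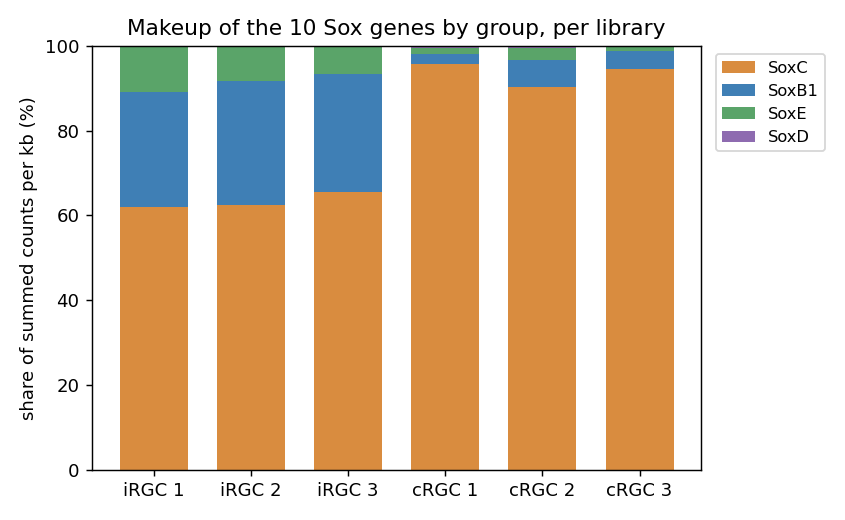
Share of each Sox group in the summed counts per kilobase of the 10 genes, in percent, stacked for each library. SoxC takes 61.9 to 65.6% in the iRGC libraries and 90.2 to 95.7% in the cRGC libraries, and SoxD is too small to be seen.

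Ratios within a library do not depend on its scaling. The geometric mean of Sox4 over Sox2, per kilobase, was 1.37 in iRGCs and 14.6 in cRGCs, with library values of 1.35, 1.18 and 1.63 against 27.1, 8.68 and 13.2. Sox4 over Sox9 was 6.69 in iRGCs and 56.7 in cRGCs, with 4.98, 5.23 and 11.5 against 94.2, 32.4 and 59.7. Neither ratio overlapped between populations (p = 0.1 each, the smallest possible, adjusted p = 0.55 over 11 pairs, two-sided exact permutation tests). Sox4 over Sox6 was 316, 378 and 256 in iRGCs and 135, 160 and 518 in cRGCs, and overlapped through cRGC replicate 3 alone (p = 0.5, exact permutation test). The log2 difference of 0.49 became 1.09 without that library, and 0.12 and 0.24 without cRGC replicates 1 and 2. Among the 10 genes, ratios between genes of one group all overlapped. For Sox2 over Sox3 the means were 12.3 and 9.87 (p = 0.4, exact permutation test), and for Sox11 over Sox12 they were 1.78 and 1.32 (p = 0.2, exact permutation test). With 3 libraries per population these tests could not have shown unequal changes within a group, whatever their size.

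The Sox genes were next set beside marker genes of the cells that a retina can hold. Of 14 progenitor genes, 13 were higher in iRGCs and none lower, with a median log2 fold change of 2.51. Their summed level was 8688, 7867 and 6825 CPM in iRGCs and 1079, 2167 and 1723 CPM in cRGCs, with Ccnd1, the G1 cyclin of retinal progenitors, the most abundant gene. Over all tested genes, 23.3% were higher and 23.1% lower. Of 18 cell cycle genes, all 18 were higher in iRGCs (median 2.44), with Top2a the most abundant. Of 10 genes of neurogenic precursors, all 10 were higher (median 1.60), with Hes6 and Btg2 the most abundant in iRGCs. The RGC list includes Pou4f1 and Sncg, which the paper describes as selective for cRGCs. Of its 14 genes, 13 were lower in iRGCs and none higher (median -1.94). Their sum was 2760, 3852 and 5893 CPM in iRGCs and 15567, 13928 and 17093 CPM in cRGCs. Over both populations together the neurofilament gene Nefm was the most abundant, while in cRGCs Gap43 had the same mean (2253 CPM). The part of progenitors, cycling cells and RGC number in the Sox differences was not tested.

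Library by library, Sox2 and Sox9 followed the progenitor list within cRGCs, where replicate 2 was highest, replicate 3 next and replicate 1 lowest for all of them. The other SoxB1 and SoxE genes did not, as Sox8 and Sox1 were lowest in cRGC replicate 3 and Sox3 was highest there. Within iRGCs, Sox9 was highest in replicate 1 and lowest in replicate 3, as was the progenitor list, and Sox2 was lowest in replicate 1 and highest in replicate 3. Replicate 3, with the highest RGC list among iRGC libraries, also had the highest Sox4, Sox12, Sox5 and Sox6 there and the lowest Sox11. These are orders of 3 libraries and carry no test.

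**Figure D4:**
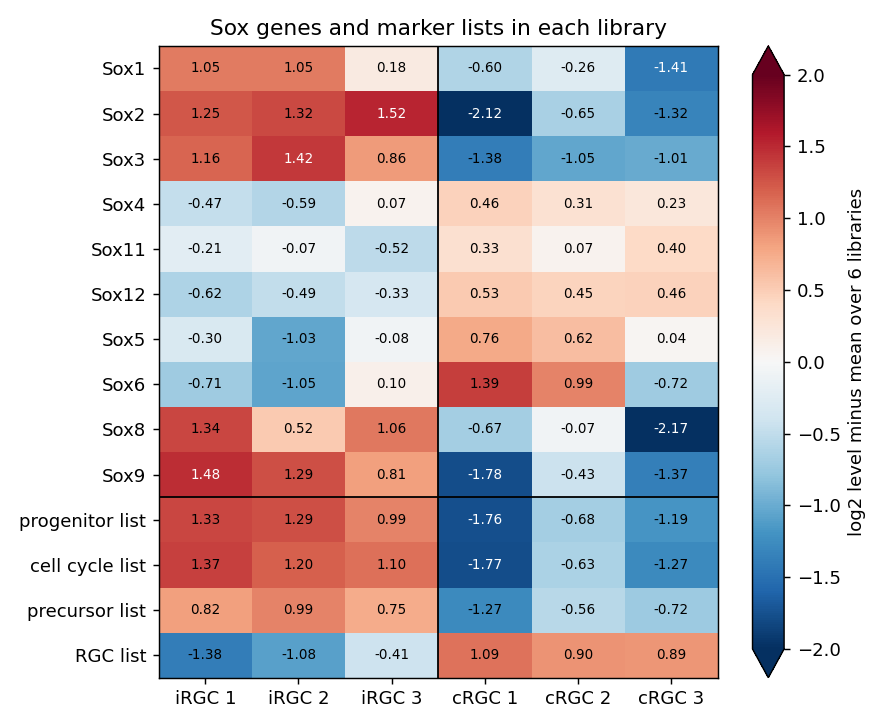
Log2 level of each Sox gene (CPM with 0.5 added) and geometric mean level of 4 marker lists in each library, as the difference from the mean over the 6 libraries. Red is above the mean and blue below. SoxB1 and SoxE genes and the progenitor, cell cycle and precursor lists lie above their mean in the iRGC libraries and below it in the cRGC libraries. Libraries of 27.1% of all tested genes separate in that direction.

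Other cell types were less uniform, and their counts are to be read against the same 23.3% and 23.1% of all tested genes. Amacrine genes were higher in iRGCs for 7 of 8 (median 1.499), with Tfap2b the most abundant. Of 6 tested photoreceptor precursor genes, 5 were higher and 1 lower, led by Otx2. Of 5 tested starburst amacrine genes, 1 was higher and 1 lower, and of 6 horizontal cell genes, 2 were higher and 1 lower. Markers of cells that express SoxE outside the retina were few. Of 7 genes of neural crest glia, 3 were tested and 2 of them reached the level of the low-count filter in all cRGC libraries. The most abundant was Fabp7, which retinal progenitors also make and which was higher in iRGCs (log2 fold change 2.36, edgeR adjusted p = 0.00997), while Sox10 and Cdh19 were at 0 in every library. Of 6 genes of astrocytes and optic stalk, 2 were tested, and 1 of them was lower in iRGCs. Of 3 tested fibroblast genes, 1 was higher in iRGCs. Of 4 tested mural genes, 1 reached the level of the low-count filter in all cRGC libraries, and no count of calls is given. Mural genes summed to 22.4, 160 and 36.8 CPM in iRGCs and at most 5.04 CPM in cRGCs. Erythroid genes summed to 12.2, 92.7 and 15.2 CPM in iRGCs and at most 5.11 CPM in cRGCs. Both lists, like the endothelial one, were highest in iRGC replicate 2. Microglia genes summed to 13.1, 21.2 and 15.8 CPM in iRGCs and at most 4.18 CPM in cRGCs. No tested erythroid or microglia gene reached the level of the low-count filter in all 3 cRGC libraries, so no count of calls is given for them. Of 7 tested ciliary margin genes, 3 reached that level in all cRGC libraries, and they too get no count of calls. All 7 genes summed to 242, 457 and 263 CPM in iRGCs and 434, 454 and 512 CPM in cRGCs, with Mab21l2 the most abundant. Their geometric mean lay the other way, with 7.19, 26.7 and 5.86 CPM in iRGCs and 2.60, 3.68 and 4.41 CPM in cRGCs. Pigment epithelium and lens genes were scarce, with sums of at most 7.76 and 13.3 CPM in any library. Their 4 and 2 tested genes include 1 each that reached the level of the filter in iRGCs alone, so no count of calls is given for them either.

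Genes known as partners or targets of Sox proteins were read from 3 lists. Of 11 partners and targets of SoxB1, 7 were higher in iRGCs, none was lower, and the median log2 fold change was 1.79. Pax6, which pairs with Sox2 on lens genes, had means of 838 and 902 CPM and a log2 fold change of -0.11 (adjusted p = 0.528, edgeR). Otx2, which acts with Sox2 on the eye field gene Rax, and Rax itself were higher (2.37 and 2.31), as were Notch1 (2.64), the Notch target Hes5 (1.79), Gli3 (2.66), the intermediate filament gene Nes (2.00) and the chromatin remodeller Chd7 (0.68). Pou3f2 (-0.11), Mycn (-0.15) and Jag1 (0.50) did not pass the test. Rax, Nes, Notch1 and Hes5 are also in the progenitor list and Otx2 in that of photoreceptor precursors.

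Of 7 genes linked to SoxC, 5 were lower in iRGCs and 2 were higher, with a median of -1.15. Those lower were the neuronal tubulin Tubb3 (-1.63), the microtubule-associated Map2 (-1.31) and Dcx (-1.98), the adhesion molecule Nrcam (-0.53) and the semaphorin receptor Plxna1 (-1.15). Nrcam and Plxna1 are known for their role in midline crossing. Those higher were the transcription factor genes Neurod1 (1.92) and Tead2 (2.16). Of 12 partners and targets of SoxD and SoxE, 10 were tested, with 6 higher, 1 lower and a median of 1.53. Nfia (1.45) and Nfib (1.33), the glial genes Apcdd1 (2.25) and Slc1a3 (2.64), and the collagen genes Col2a1 (2.74) and Col9a1 (1.61) were higher, and Col11a2 (-1.53) was lower. Nfix, Mmd2 and Hapln1 did not pass, and the cartilage genes Acan and Matn1 were at or near 0 and not tested. Slc1a3 is also in the progenitor list. Each share is to be read against the 23.3% of tested genes that were higher and the 23.1% that were lower.

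**Figure D5:**
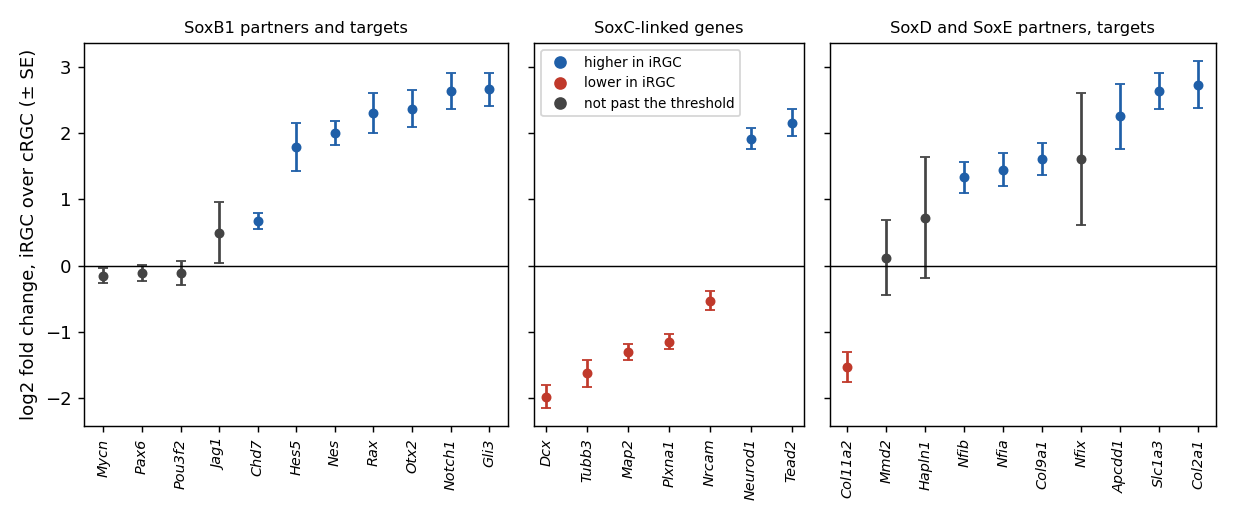
Log2 fold change of iRGCs over cRGCs with its SE for the tested genes of 3 lists of Sox partners and targets. Blue passed the test as higher in iRGCs, red as lower, and grey did not pass. The first list has 7 blue points of 11, the second 5 red points of 7 and the third 6 blue points of 10.

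The tested genes most like the leading member of each Sox group were found by distance between log2 levels centred over the 6 libraries, among 15940 genes. Nearest to Sox2 were Lfng (distance 0.177), which modifies Notch receptors, the replication helicase gene Mcm3 (0.215) and the mitotic kinase gene Pbk (0.251). Nearest to Sox9 were the receptor tyrosine kinase gene Erbb2 (0.161), the kinetochore gene Knl1 (0.195) and Pter (0.213). Nearest to Sox4 were Dtx1 (0.142), Bex2 (0.172) and Zfp711 (0.190). No gene came as near to Sox6, for which Gm16334 (0.454), Drc1 (0.573) and the transcription factor gene Bcl11b (0.647) were the closest. The genes share their 6 libraries, and with them the step between populations.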

How the data were processed

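RNA of sorted GFP-positive cells was sequenced in 6 libraries, and the 13 ATAC-seq samples were not analysed here. The authors aligned reads to mm10 with HISAT2 2.1.0, counted them on Ensembl genes with HTSeq 0.11.1 and deposited raw counts per gene, 1 table per library. Reads that HTSeq assigned to no gene were left out of library sizes. They were 8.09% to 16.8% of all tallies for reads on no gene, 0.618% to 0.649% for ambiguous reads and 25.9% to 33.0% for reads not aligned uniquely. Positions and lengths came from GENCODE M21 for 46574 genes.

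The test was that of edgeR 4.0.16 in R 4.3.3 (filterByExpr, TMM factors of 0.921 to 1.10, quasi-likelihood test, two-sided) without a block. P-values were adjusted over all tested genes by Benjamini-Hochberg, and calls were made at an adjusted p under 0.1. The biological coefficient of variation was 36.3%, and no floor or interval beyond the SE is given. The SE of a log2 fold change is its size over the root of the F statistic. The fit was tested on simulated data. Alternatives used DESeq2 1.42.0, limma 3.58.1, other scalings, filters and thresholds, a replicate block, other gene lengths, and each library left out.

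Named genes are the Sox genes, genes overlapping them, the partner and target lists, genes among the 3 most abundant of each marker list, and for the leading member of each group the 3 nearest genes. Slc6a4, Zic2, Isl2, Pou4f1, Sncg and Cdh19 were chosen after their values were seen. The genes, lists and tests were chosen with earlier results of these data known.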

Additional observations from a re-analysis of the deposited data

How the results depend on the processing

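No log2 fold change of the 10 Sox genes changed direction under the alternatives run, and 138 values kept their side of the threshold while 25 did not. The number called lower in iRGCs, 5 as reported, was 2 with library totals alone, 3 with the replicate block, 3 at an adjusted p under 0.05, 1 when an absolute log2 fold change above 1 was also required (3688 genes overall against 7395), and 3 to 5 when libraries were left out. With library totals alone, 64.2% of calls were higher in iRGCs, against 50.1%. In that fit Sox11 (-0.31), Sox5 (-0.79) and Sox6 (-1.12) were lost. With the block, Sox5 (-1.02) and Sox6 (-1.22) were lost. limma voom lost Sox6 (-1.10, adjusted p = 0.156), and without the filter on low counts Sox1 was lost (2.103, adjusted p = 0.146). The stricter threshold lost Sox1 (2.11), Sox5 (-0.99) and Sox6 (-1.31), and the fold threshold lost Sox4 (-0.64), Sox11 (-0.52), Sox12 (-0.96) and Sox5 (-0.99). With single libraries left out, Sox1 ranged from 1.67 to 2.69, Sox5 from -1.23 to -0.73 and Sox6 from -1.75 to -0.90. The causes were not tested. Of the other Sox genes, Sox13 kept its call under each alternative run. Counts of calls among them were 3 in the main fit, 5 without the filter, and 1, that of Sox13, with at least 10 counts in every library. There were 2 by limma voom, with the replicate block, and without iRGC replicate 1 or iRGC replicate 2. Without iRGC replicate 3, cRGC replicate 1 or cRGC replicate 2 there were 4. Apart from the count of 1, all of these include SoxF genes, which had at most 1 count in cRGCs. These counts are therefore a description only, and are not set against the share over all genes.

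With counts in place of counts per kilobase, the difference in share was 11.1 percentage points for SoxB1, -16.4 for SoxC and -0.48 for SoxD. With coding length it was 13.5 for SoxB1, -17.8 for SoxC and 4.58 for SoxE. With all Sox genes the SoxD difference reversed to 1.15, since Sox13 then enters. Log2 ratios that reversed when 1 library was left out ranged from -1.17 to 0.19 for Sox1 over Sox2, from -0.91 to 0.34 for Sox1 over Sox3, from -0.46 to 0.10 for Sox4 over Sox11, from -0.15 to 0.56 for Sox5 over Sox6 and from -0.96 to 0.050 for Sox8 over Sox9. The list levels of starburst (0.27), horizontal (1.04) and ciliary margin genes (-0.60) reversed when CPM were summed.

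Deviations from the group means correlated by -0.0121, -0.0237 and -0.0550 between same-numbered libraries, and by -0.00837 to 0.0355 between the others. These values show no shared deviation, but cannot settle whether same-numbered libraries were handled together. With 3 libraries per population, the calls among the 10 genes lost when a library was left out were those of Sox1, Sox5 and Sox6. Levels near 0, as for SoxF genes in cRGCs, are limited by counting.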
